A study of Mus musculus with 4 samples.

Results

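The tiles described here are 1 kb stretches of the mouse genome that were highly methylated in *R1* neurons. In *Tet/Tet* neurons they had more methylation than most such tiles. A tile started at a multiple of 1000 on mm10 and needed at least 5 CpG sites listed in all 4 tables, and its level was the plain mean of the percentages of those sites. Tiles at or above 80% in *R1* neurons and at or above 35% in *Tet/Tet* neurons were taken, and they are called retaining tiles here. The name refers to the level in *R1* neurons and not to ESCs: 549 of the tiles were higher in *Tet/Tet* neurons than in *Tet/Tet* ESCs. There were 2147 retaining tiles among 50073 tiles at or above 80% in *R1* neurons, a share of 4.29%, and among 80308 tiles in all. The remaining 47926 tiles at or above 80% in *R1* neurons are the other tiles that they are compared with. The retaining tiles were chosen by their values in the neuron libraries, so their neuron levels are a description and not a result.

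In mammalian cells CpG methylation is copied to new DNA by the maintenance enzyme DNMT1 and its partner UHRF1, and it is laid down anew by DNMT3A and DNMT3B. Methylation keeps most transposable elements silent, and retroviral elements of the intracisternal A particle family are known for keeping it when much of the genome loses it in the early embryo. Mouse repeats of these kinds are rich in CpGs and have many near-identical copies.

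The data were reduced representation bisulfite sequencing (RRBS) of 4 libraries, 1 for each condition. *R1* is a wild-type mouse embryonic stem cell (ESC) line. The *Tet/Tet* line was derived from *R1* by a knock-in of *tet-off* cassettes behind the promoter of *Dnmt1*, overexpresses DNMT1, and was kept as ESCs under puromycin and G418. Neurons of each line were made through 2 days as embryoid bodies and then NDiff medium, for which the labels give 10 to 15 days. The ESC libraries and the neuron libraries were separate sequencing projects, so cell type and project cannot be told apart. For the neurons the labels and the methods also name different DNA extractions. No condition had a second library, so differences could not be set against replicates and no test was made. The tables hold percentages without read totals, so the depth behind each site is unknown. In *Tet/Tet* neurons, chromosomes 8 and 9, chromosome 7 beyond position 55762981 and chromosome 10 before position 128096803 were not analysed here.

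The sequences below show the kinds of DNA among the retaining tiles. The first 3 stand for groups of retaining tiles with similar sequence, the fourth is from the tile with the highest level in *Tet/Tet* neurons, and the last is from the highest tile inside *Dnmt3a*. All are on the forward strand of mm10, and capitals mark the CpGs that were listed in all 4 tables.
Sequence group 1, chr5:84824699-84824898: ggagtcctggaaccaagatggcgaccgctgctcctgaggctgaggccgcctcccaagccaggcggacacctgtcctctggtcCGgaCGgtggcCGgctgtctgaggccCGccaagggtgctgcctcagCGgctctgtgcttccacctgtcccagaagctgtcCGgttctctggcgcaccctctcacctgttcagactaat
Sequence group 2, chr1:117634428-117634627: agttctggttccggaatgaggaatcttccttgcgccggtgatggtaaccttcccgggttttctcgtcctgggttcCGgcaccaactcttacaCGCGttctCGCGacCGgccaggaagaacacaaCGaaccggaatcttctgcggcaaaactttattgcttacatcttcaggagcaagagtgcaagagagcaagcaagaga
Sequence group 3, chr11:91642801-91643000: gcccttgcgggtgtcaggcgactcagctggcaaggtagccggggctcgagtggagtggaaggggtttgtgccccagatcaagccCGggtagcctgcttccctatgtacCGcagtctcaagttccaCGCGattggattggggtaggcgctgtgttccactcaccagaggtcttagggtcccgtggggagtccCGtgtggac
Highest tile, chr17:81232082-81232281: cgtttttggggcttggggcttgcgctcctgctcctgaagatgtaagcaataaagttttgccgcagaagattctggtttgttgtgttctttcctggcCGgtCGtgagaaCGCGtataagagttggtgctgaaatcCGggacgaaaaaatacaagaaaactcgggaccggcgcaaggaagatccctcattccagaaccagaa
*Dnmt3a* tile, chr12:3896001-3896200: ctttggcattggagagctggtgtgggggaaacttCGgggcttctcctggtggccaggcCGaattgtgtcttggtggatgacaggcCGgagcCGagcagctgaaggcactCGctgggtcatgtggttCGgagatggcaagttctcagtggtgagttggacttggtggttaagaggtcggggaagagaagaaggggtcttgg

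Retention differed in kind between these stretches. In the group 2 stretch, all 7 CpGs stayed partly methylated in *Tet/Tet* neurons, at 48, 56.0, 64.0, 64.0, 68.0, 84.0 and 52.2%. The same 7 CpGs lay between 89.9 and 98.4% in *R1* neurons, with mean ESC levels of 86.9% in *R1* and 89.8% in *Tet/Tet*. In the *Dnmt3a* stretch, the first 3 CpGs were at 12.3, 15.5 and 33.3% in *Tet/Tet* neurons and the last 3 were all at 100%, so that the mean of 60.2% described none of the 6. The highest tile had each of its 5 printed CpGs at 100% in both neuron libraries. Without read totals, a fully methylated site and a site with few reads cannot be told apart at such values.

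Over all retaining tiles, the median level in ESCs was 60% for *R1* and 65.2% for *Tet/Tet*, and in neurons 95% for *R1* and 40.3% for *Tet/Tet*. In the other tiles the medians were 48.3, 52.9, 93.3 and 17% in the same order. The retaining tiles were therefore far from a full retention: 2135 of 2147 were lower in *Tet/Tet* than in *R1* neurons, with a median difference of -52.5 percentage points, and 7 were higher. Most lay close above the threshold, with 1000 tiles at 35 to 40%, 706 at 40 to 50%, and 17 at or above 90%. Over all tiles at or above 80% in *R1* neurons, the *Tet/Tet* neuron level had a median of 17.4%, and its 95th and 99th percentiles were 33.8 and 47.9%. The threshold cut through the upper tail of that distribution. The 5 nearest tiles inside it had levels of 35%, and the 5 nearest outside lay between 34.97 and just under 35%.

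**Figure D1:**
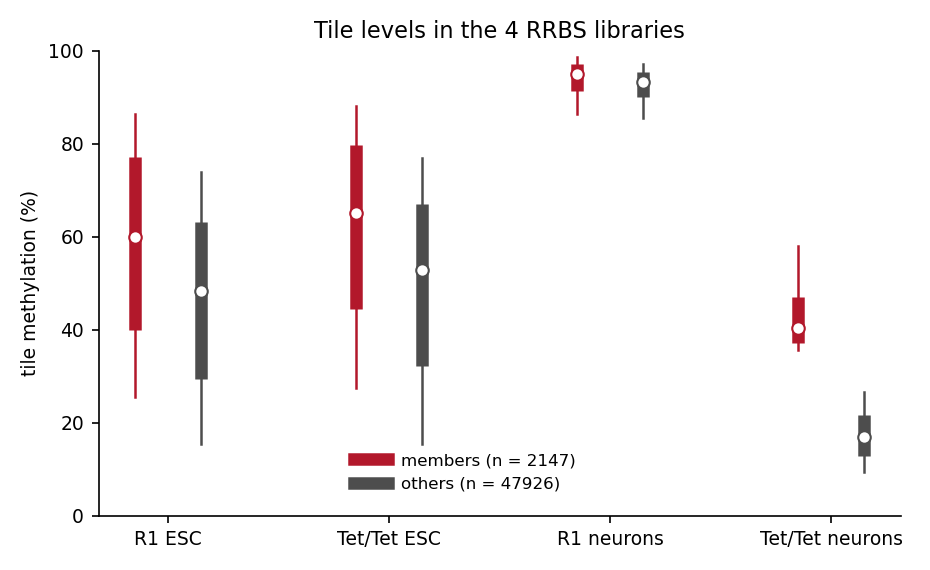
Tile methylation (%) in each of the 4 RRBS libraries for retaining tiles (members, red) and other tiles at or above 80% in *R1* neurons (others, grey), with circles for medians, thick bars from the 25th to the 75th percentile and thin lines from the 10th to the 90th. The neuron levels chose the tiles, and in both ESC libraries the retaining tiles also had the higher median, 60 against 48.3% for *R1* and 65.2 against 52.9% for *Tet/Tet*.

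The sites inside a retaining tile often did not share its level. The SD of *Tet/Tet* neuron percentages over the sites of a tile had a median of 30.3 percentage points in retaining tiles and 9.06 in other tiles. In 474 retaining tiles, 22.1%, the lowest site was at 0 and the highest at 100%, against 2.90% of the other tiles. A mean level therefore often joined values at both ends of the scale. Sites at exactly 100% in *Tet/Tet* neurons made up 14.8% of the sites of retaining tiles and 0.752% of those of other tiles. In *R1* ESCs, a library the rule did not use, sites at exactly 0 or 100% were 28.9% of the sites of retaining tiles and 14.3% of those of other tiles. Only 93 retaining tiles had every shared site at or above 35%.

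Sites of the same tiles that were listed in both neuron tables but not in all 4 tables were not used by the rule, and 443 retaining tiles had at least 5 of them. At these sites the median *Tet/Tet* neuron level of the retaining tiles was 18.7%, where their shared sites gave 39.3%. The other tiles had a median of 13.3% at such sites, over 14210 tiles. Most of the 443 thus did not keep their level at sites the rule had not used, although they remained above the other tiles in the median. Of the retaining tiles 22.6% reached 35% at the unused sites, against 11.3% of the other tiles. For the 59 retaining tiles whose shared sites gave 50% or more, the median at unused sites was also 18.7%. The part of sites at exactly 0 or 100% in this drop was not tested.

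**Figure D2:**
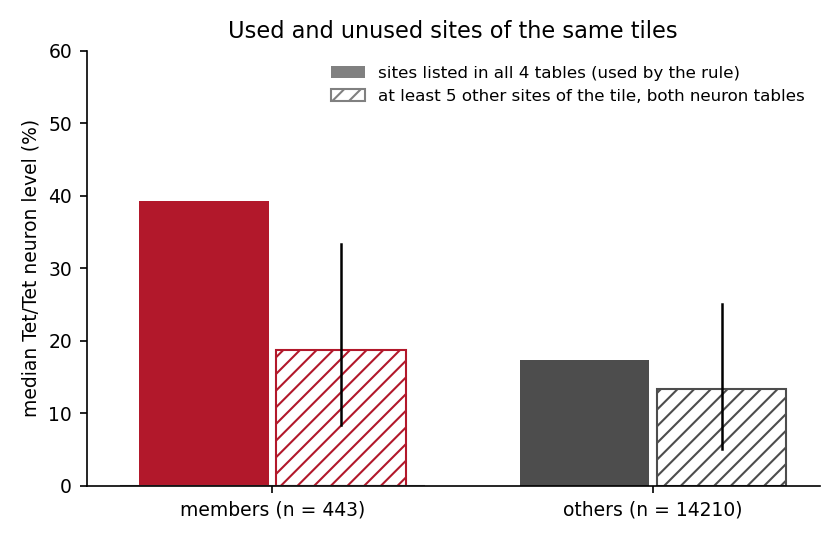
Median *Tet/Tet* neuron level (%) at the sites that the rule used (filled bars) and at 5 or more further sites of the same tiles listed in both neuron tables (hatched bars, black lines from the 25th to the 75th percentile), for retaining tiles (members) and other tiles. The level of the retaining tiles falls from 39.3 to 18.7% and stays above the 13.3% of the other tiles.

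Of the retaining tiles, 2103 had no retaining tile next to them and 44 formed 22 pairs, with no longer run. A next tile could be retaining only if it had enough shared sites and was at or above 80% in *R1* neurons. How many next tiles met this was not counted, so these numbers do not show how isolated the retaining tiles were. Tiles 1 kb away from a retaining tile, measured at sites listed in both neuron tables and at or above 80% in *R1* neurons, had a median of 18.8% in *Tet/Tet* neurons, against 16.0% next to other tiles. Of these neighbours 11.2% reached 35%, against 7.25%. At 4 to 10 kb the medians were 15.8 and 15.0%. The unused sites of the retaining tiles themselves had a median of 18.7%, so the difference between these neighbours and the 40.3% at the chosen sites gives no range. The pair with the highest mean, chr12:52222001-52224000 in *Nubpl*, a gene for a factor of respiratory complex I assembly, had 64.7% in *Tet/Tet* and 93.1% in *R1* neurons, and in ESCs 25.9% for *Tet/Tet* and 19% for *R1*.

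**Figure D3:**
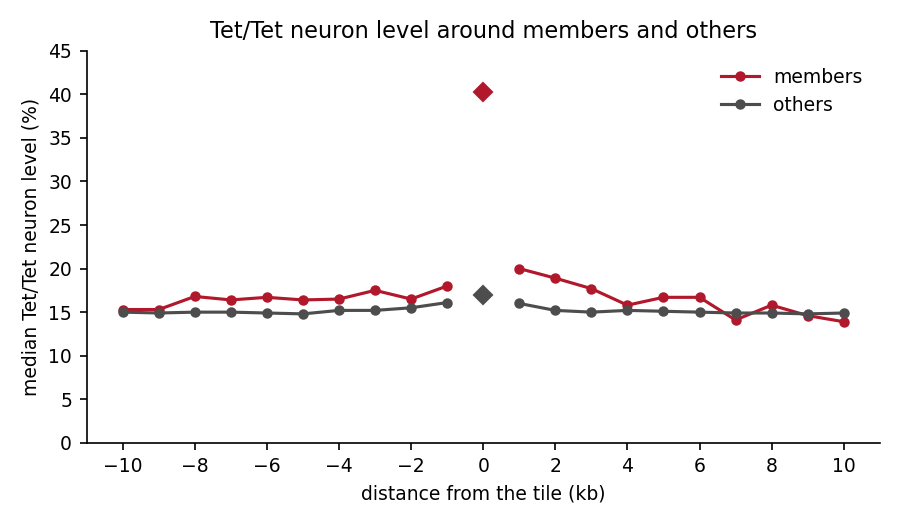
Median *Tet/Tet* neuron level (%) of tiles at 1 to 10 kb on either side of retaining tiles (members, red) and of other tiles (grey), with diamonds at distance 0 for the tiles themselves, which the rule chose by this level. At 1 kb the medians are 18 and 20% beside retaining tiles and 16.1 and 16.0% beside other tiles, and the diamond at 40.3% was fixed by the choice of tiles.

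Methylation in ESCs was higher in the retaining tiles, and these 2 libraries took no part in choosing them beyond listing the sites. In *R1* ESCs 64.0% of retaining tiles were at or above 50%, against 47.5% of other tiles, and 20.3% were at or above 80%, against 5.04%. In *Tet/Tet* ESCs 68.8% were at or above 50%, against 54.2%. The share of retaining tiles rose from 2.03% of the tiles under 20% in *R1* ESCs to 15.3% of those at or above 80%, and from 1.74 to 13.9% over the same range in *Tet/Tet* ESCs. The step lay at the top: between 20 and 60% in *R1* ESCs the share was close to 3.37 and 3.34%. Between the ESC lines themselves the median difference was small, with *Tet/Tet* above *R1* by 2.98 percentage points in retaining and 2.49 in other tiles.

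All but 27 retaining tiles were at least as methylated in *R1* neurons as in *R1* ESCs, and the mean rise was 36.2 percentage points. In the *Tet/Tet* line 1585 of 2147 retaining tiles went down from ESCs to neurons and 549 went up, with a mean change of -16.6 percentage points. In other tiles the mean changes were 45.8 percentage points in the *R1* line and -32.0 percentage points in the *Tet/Tet* line. These changes include the neuron levels that chose the tiles.

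Retaining tiles were rich in repeat sequence. Repeat sequence here means the lower case letters of the mm10 reference, which do not name the kind of repeat and were not checked against a repeat annotation. On chromosomes 1 to 19, X and Y 1039 of 2143 retaining tiles, 48.5%, had at least 50% of their bases so marked. The figure for other tiles was 20%. With sites listed in both neuron tables instead of all 4, the shares were 22.6 and 15.0%. Of all tiles with that much repeat sequence 9.78% were retaining, against 2.80% of tiles with less and the 4.28% background on these chromosomes. Where every shared site lay in a repeat, 13.2% of tiles were retaining. The share of repeat-rich tiles was 41.9% of retaining tiles at 35 to 40% and 84.8% of the 46 at 70 to 80%. It did not go further up, with 76.0% of the 25 tiles at 80 to 90% and 82.4% of the 17 at or above 90%. These classes are made by the *Tet/Tet* neuron level that chose the tiles.

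Among tiles with at least 50% repeat bases, the median in *R1* ESCs was 63.3% for retaining and 56.4% for other tiles. Among tiles with fewer, it was 57.8 and 46.5%. Within repeat-rich tiles the retaining share did not rise between 20 and 80%, being 9.85, 7.66 and 8.41% in successive steps of the *R1* ESC level and 9.77, 8.53 and 7.72% for *Tet/Tet* ESCs. Among copies of the 5 sequence groups described below, the medians in *R1* ESCs were 50.0% for retaining and 48.1% for other tiles. Tiles with high ESC levels and repeat sequence held the largest share of retaining tiles, 19.8% at or above 80% in *R1* ESCs, whereas 1.45% of the tiles that had neither feature, under 20% in *R1* ESCs and under 50% repeat bases, were retaining. At the sites not used by the rule, repeat-rich retaining tiles had a median of 15.0% in *Tet/Tet* neurons over 153 tiles, where their shared sites gave 40.7%. The remaining retaining tiles had 20% over 290 tiles, and other tiles of either class had 13.3%. At those sites the repeat-rich retaining tiles were therefore barely above the other tiles in the median, while 26.1% of them reached 35%, against 15.9% of other repeat-rich tiles.

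**Figure D4:**
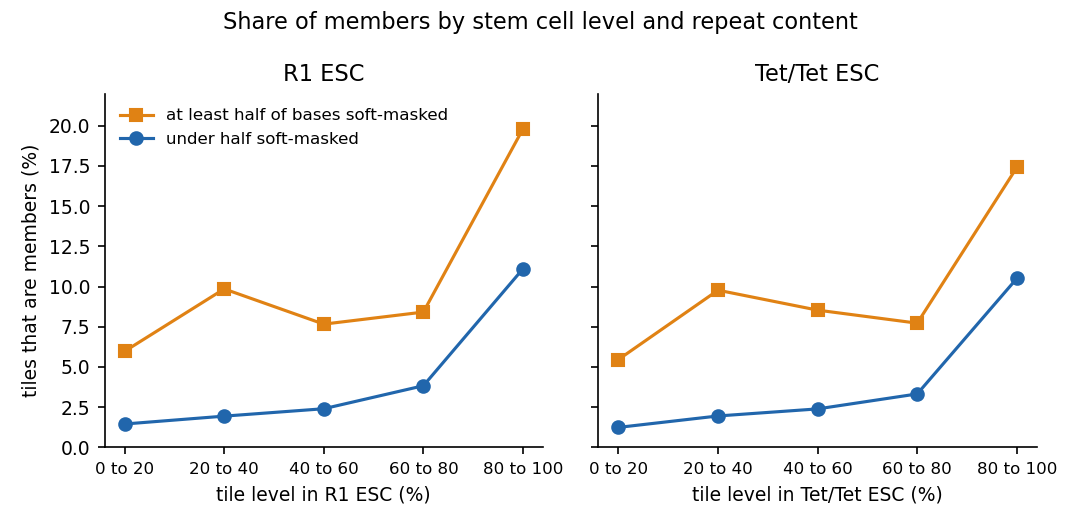
Share (%) of tiles at or above 80% in *R1* neurons that were retaining, by their level in *R1* ESCs (left) or *Tet/Tet* ESCs (right), for tiles with at least 50% of bases in soft-masked repeats (orange squares) and with fewer (blue circles). The repeat-rich tiles lie higher in every class, and both lines rise at 80 to 100%, to 19.8 and 11.1% in *R1* ESCs.

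CpG content followed the same direction. The retaining tiles held a median of 21.0 CpGs in 1 kb, against 18 in other tiles, at a similar GC content of 48.1 and 49.2%. The difference in CpGs lay in the repeat-rich tiles. Among tiles with at least 50% repeat bases the medians were 27 for retaining and 20 for other tiles. Among tiles with fewer, the medians of retaining and other tiles were equal. An observed over expected CpG ratio of at least 0.6 was found in 9.29% of retaining and 2.27% of other tiles, and 15.5% of all tiles with such a ratio were retaining. The letters TGCCGC, the core of the motif known to be bound by the imprint-protecting factor ZFP57, stood on either strand in 21.4% of retaining and 16.4% of other tiles. The ratio and this motif were not split by repeat content. Sites within MspI fragments of 40 to 220 bp, the range usual for RRBS, made up at least 50% of the shared sites in 43.4% of retaining and 56.7% of other tiles.

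Retaining tiles were grouped by similar sequence. By BLAST, 1130 of 2143 shared at least 200 bp at 80% identity or more with another retaining tile. The same share was not computed for other tiles, so this number does not set the retaining tiles apart. Of the groups formed by these matches, the 5 largest were numbered by size, since no repeat annotation was used here. Each representative was then compared with all tiles. A tile was counted as a copy if the match covered at least 1 of its shared sites. Tiles with a copy of any of the 5 were retaining in 12.0% of 5180 cases, repeat-rich tiles with none in 7.89% of 5795, and the remaining tiles in 2.73% of 39042. The groups were found among retaining tiles, and these shares use the same *Tet/Tet* neuron levels as the rule. The shares are therefore a description and not independent of the choice, although the copies include tiles that the rule did not take.

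Group 2 had the highest share of retaining copies by the shared sites. Of its 504 copies at or above 80% in *R1* neurons 102 were retaining, 20.2%, and the median of the copies in *Tet/Tet* neurons was 24.0%. At the sites not used by the rule the median of group 2 copies was 14.8% over 77 tiles, with 8.33% for the 15 retaining ones and 15.2% for the 62 others. Over the copies of all 5 groups it was 13.3%, against 13.5% over the 13708 tiles of no group, while 26.0% of the group 2 copies and 11.3% of the tiles of no group reached 35% at these sites. The 504 group 2 copies were already methylated in ESCs, with medians of 78.8% in *R1* and 82.8% in *Tet/Tet* ESCs. The highest tile printed above was a copy of it. Retroviral elements carry a primer binding site behind their first long terminal repeat, where a transfer RNA starts reverse transcription. Such sites were searched as the reverse complement of the last 15 bases of each annotated tRNA plus CCA, on both strands. The sequences for tRNA-Phe were tggtgccgaaacccggga, which is also the sequence for a tRNA-Ser, and tggtgctgaaacccggga. At least 1 of them stood in 375 tiles, 0.750% of the tiles at or above 80% in *R1* neurons, and 87 of these tiles, 23.2%, were retaining. Among the copies at or above 80% in *R1* neurons, 111 of 504 in group 2 and 138 of 362 in group 5 held such a site. Intracisternal A particles are known to use tRNA-Phe. A site for tRNA-Ile, tggtggcccgtacgggga, stood in 127 tiles, of which 19 or 15.0% were retaining. With all tRNA-Ile sequences there were 137 such tiles, and 117 of these were copies of group 5 and 6 of group 2. Group 5 copies thus held sites of both kinds. Sites for tRNA-Gln, tRNA-Lys and tRNA-Thr stood in 16, 9 and 5 tiles, of which 0 were retaining. For tRNA-Pro 2 of 28 tiles were retaining, 7.14%, and for tRNA-Gly 3 of 30, 10.0%. Of all repeat-rich tiles 9.78% were retaining. Whether the shares by primer binding site differ from that was not tested.

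Group 1 had 1641 such copies and group 3 had 1905. The group 3 representative matched itself best at a shift of 208 bp, with 96.0% identity over 150 bp, that of group 2 at 81 bp with 80%, and that of group 1 at 214 bp with 74.0%. For groups 4 and 5 the best self-matches had 42.0 and 47.3%. Of the group 1 copies 262, 16.0%, were retaining, with a median of 22.2% in *Tet/Tet* neurons, and of the group 3 copies 165, 8.66%, with 20%. In ESCs these copies were lower than those of group 2, with medians of 33.3 and 40.7% for *R1* and 36.8 and 46.2% for *Tet/Tet*. The share did not follow the identity to the representative in one way. In group 3 it was 2.33% of 86 copies at 80 to 85% identity and 13% of 575 copies at 95% or more. In group 2 it was 29.1% of 86 and 25.4% of 67 copies, and in group 1 it was 17.3% at 85 to 90%, 12.7% at 90 to 95% and 22.6% at 95% or more. Groups 4 and 5 had 876 and 362 copies, of which 8.11 and 7.73% were retaining.

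Within the copies of a group the level depended on the CpG. In group 1, 3 neighbouring CpGs, the first 3 capitals of the sequence printed above, stood out. They had means of 40, 41.3 and 43.6% in *Tet/Tet* neurons over 685, 416 and 768 sites. Their means in *R1* ESCs were 42.2, 31.0 and 45.1%. The CpG next along had 19% over 578 sites, and the one after it 14.2% over 879. A copy can add more than 1 site to a position. These means cover all copies at or above 80% in *R1* neurons, retaining or not. In group 2 the means ran from 11.8 to 45.5% over 18 positions and in group 3 from 6.88 to 31.0% over 27. CpGs within CCGG, the MspI site where the fragments end, had higher medians of the position means than other CpGs, 35.5 against 19.4% in group 1, 32.6 against 23.2% in group 2 and 26.6 against 17.5% in group 3. Over all sites of other tiles the means were 19.7% in CCGG and 16.7% elsewhere, and in retaining tiles 46.2 and 42.6%. The part of the cut site in these differences was not tested.

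**Figure D5:**
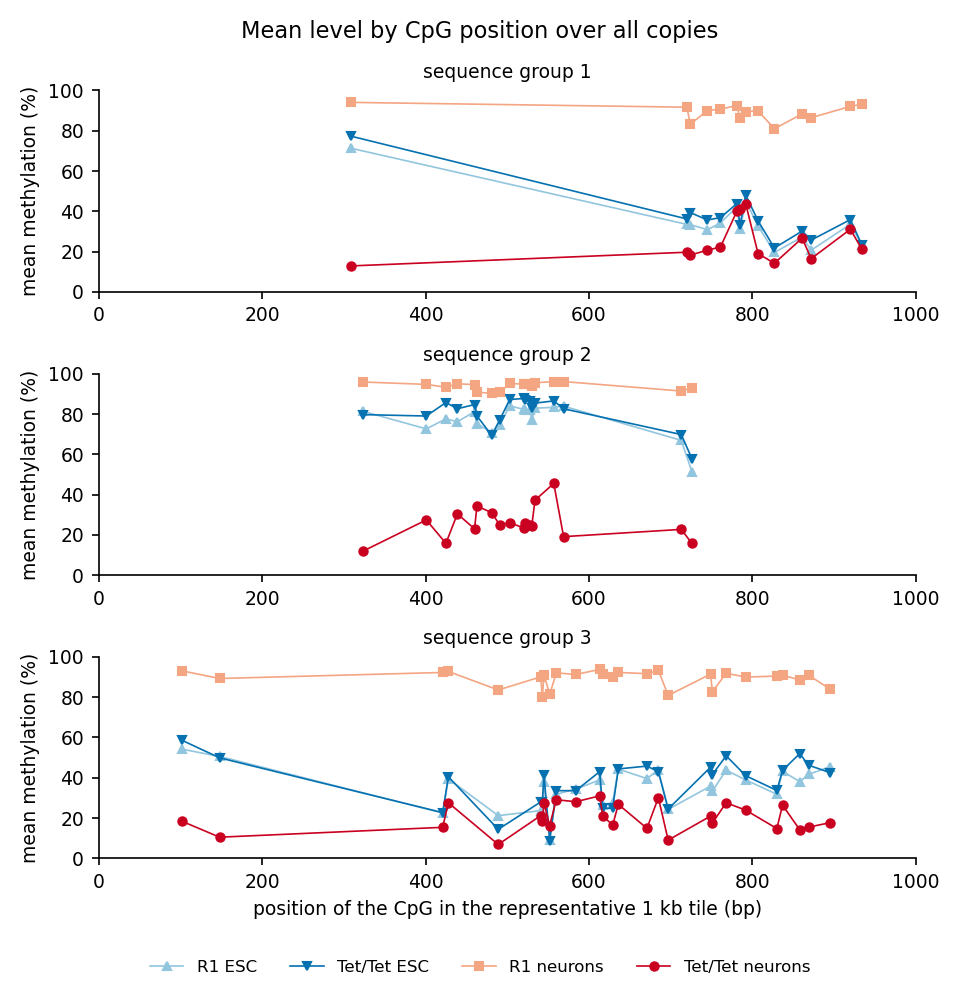
Mean methylation (%) at each CpG position of the representatives of sequence groups 1, 2 and 3, over the shared sites of all copies at or above 80% in *R1* neurons (at least 20 sites per point), with light and dark blue for *R1* and *Tet/Tet* ESCs and orange and red for *R1* and *Tet/Tet* neurons. In group 1, 3 adjacent CpGs reach 40 to 43.6% in *Tet/Tet* neurons between neighbours at 22.3 and 19%, and in group 2 every ESC mean is at or above 51.4%.

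The 93 tiles with every shared site at or above 35% were set apart by their lowest site, and the spread of their sites was not compared. Their median in *Tet/Tet* neurons was 71.4%, against 40% for the other 2050 retaining tiles, a difference their choice brings with it. In features the choice did not use, 69.9% of them had at least 50% repeat bases against 47.5%. Their median in *R1* ESCs was 75 against 59.7%. All retaining tiles at 70 to 80% in *Tet/Tet* neurons had similar features, with 84.8% repeat-rich and a median of 71.7% in *R1* ESCs. These differences therefore cannot be told apart from the higher level of the 93 tiles. Copies of group 2 were 11 of the 93, 11.8%, against 4.44%, whereas copies of group 1 were 11.8% against 12.2%.

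Of the 10 highest tiles 8 had more than 70% of their bases in repeats. The highest, chr17:81232001-81233000, lay outside genes, with ESC levels of 92.9% in *R1* and 85.7% in *Tet/Tet*, and 100% in both neuron libraries, over 7 sites. A tile within *Pdzrn4*, chr15:92729001-92730000, had 90 and 69.4% in the same ESCs, and 96.7% in *R1* and 100% in *Tet/Tet* neurons, over 6 sites, and carried a tRNA-Phe primer binding site. The tile chr17:67001001-67002000 within *Ptprm*, a gene for a receptor tyrosine phosphatase, had 91.4, 91.5, 97.8 and 97.1% over 7 sites and was a copy of group 2. These 3 tiles were methylated in all libraries. The tile chr14:50249001-50250000, a copy of group 3 near *Olfr731*, was different, with ESC levels of 10.0% in *R1* and 0% in *Tet/Tet*, and 100% in both neuron libraries, over 5 sites. The highest tile with little repeat sequence, 7% of its bases, was in an exon of the zinc finger gene *Zfp608*, with ESC levels of 60% in *R1* and 80% in *Tet/Tet*, and neuron levels of 93.3 and 100%, over 5 sites.

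The location of the retaining tiles depended on which sites were used. Outside annotated genes and promoters lay 46.2% of them, against 36.6% of other tiles, while 48.9 against 56.5% were in gene bodies and 4.90 against 6.92% within 1 kb of a gene start. Sites in exons made up at least 50% of the shared sites in 15.9% of retaining and 24.9% of other tiles. The median distance to a gene start was 19241 bp, against 14176 bp. With sites in repeats left out, the direction of the first difference turned, and 21.7% of retaining tiles were outside genes and promoters against 25.9% of other tiles. Over all sites listed in both neuron tables the shares were 36.2 and 36.6%, with 11454 retaining tiles.

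Chromosome X had the highest share, 7.50% of 1614 tiles, against 4.17% on autosomes. It was also rich in repeats, which made up at least 50% of bases in 62.0% of its tiles. Among such tiles the shares were 9.10% on X and 9.96% on autosomes, and among the remaining tiles 4.89% and 2.77%, where X had 30 retaining tiles. Between chromosomes the share ran from 2.95% on the listed part of chromosome 7 to that of X, and 19 chromosomes had at least 1 retaining tile.

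Retaining tiles were also counted by gene, and of all tiles in gene bodies 3.73% were retaining. Whether the counts per gene differ from an even spread at such a share was not tested. Of 8964 protein-coding genes with a tile at or above 80% in *R1* neurons 895 had at least 1 retaining tile, 100 had 2 or more and 13 had 3 or more. *Sox5*, which encodes a transcription factor of the SOX family, had the most, 5 of its 26 tiles, at 35.1 to 76.2% in *Tet/Tet* neurons. *Dnmt3a*, which encodes a de novo DNA methyltransferase, had 4 of 9, and *Spen*, whose product represses transcription in X inactivation, 4 of 14. *H2afy*, the gene of the histone variant macroH2A1, had 4 of 13. In the last 3 genes none of the retaining tiles was rich in repeats.

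The 4 tiles of *Dnmt3a* had mean ESC levels of 76.9% in *R1* and 75.5% in *Tet/Tet*, and mean neuron levels of 96.9 and 44.3%. Those of *Spen* had 38.4, 39.8, 93.4 and 39.5%, and those of *H2afy* 57.2, 45, 95.9 and 38.0% in the same order. The rule set the neuron levels of these tiles and not their ESC levels. Some of the genes had many tiles, as *Tiam1* with 3 of 35 and *Fryl* with 3 of 19, whereas *Cmss1* had 3 of 5 and *Hsd17b4*, for a peroxisomal fatty acid enzyme, 3 of 6. *Mphosph9* had 3 of 7 tiles, all rich in repeats and with a mean of 90.3% in *R1* ESCs. *Epha6*, an ephrin receptor gene, had 3 of 9 and *Pdzrn4* 3 of 10, with 2 repeat-rich tiles each. *Map3k4* had 3 of 12 and *Gcn1l1* 3 of 11. The other genes among the 20 with the most retaining tiles had 2 each: *Gli2*, a Hedgehog transcription factor, *Nubpl*, *Pigk*, *Cog5*, *Lipo3*, *Wdfy3* and *Col26a1*. None of the 3500 genes with at least 3 tiles had only retaining ones, which was not set against the small share of retaining tiles.

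Gene groups were read against the background of 4.28%. Genes for DNA methylation and silencing factors had 6 retaining tiles of 61, 9.84%, of which 4 were those of *Dnmt3a*, 1 was in *Tet3*, an oxidase of methylcytosine, at 41.8%, and 1 in *Uhrf1* at 36.1%. Imprinted genes had 6 of 113, 5.31%, led by *Igf2r*, the receptor that clears the growth factor IGF2, with neuron levels of 53.3% in *Tet/Tet* and 90% in *R1*, and ESC levels of 89.3 and 81.3%. Zinc finger Zfp genes had 16 of 357, 4.48%, olfactory and vomeronasal receptor genes 4 of 74, 5.41%, and germline genes 4 of 94, 4.26%. The shares of these last 4 groups lay near the background.

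The neuronal gene groups are given as counts, since no difference was tested, and of all tiles in gene bodies 3.73% were retaining. Potassium channel genes had 3 of 210, 1.43%, and glutamate and GABA receptor genes 4 of 150, 2.67%, while clustered protocadherins had 0 of 19. The highest tiles among them each had 100% of their bases soft-masked. They were in *Kcnn2*, for a calcium-activated channel, at 82.5% in *Tet/Tet* neurons, in *Kcnma1* at 50.4%, and in *Gria3*, for an AMPA receptor subunit, at 100%. The *Kcnma1* tile had 15.2% in *R1* and 14.7% in *Tet/Tet* ESCs, and the *Kcnn2* tile 82.4 and 87.1%.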

How the data were processed

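RRBS libraries of ESCs and neurons of both lines were used, 1 each. Per the labels and methods, the authors trimmed reads with Trim Galore 0.6.4, assessed them with FastQC 0.11.8, mapped them to mm10 with Bismark 0.19.0 and called CpGs with MethylDackel 0.3.0. They deposited, for each CpG, the percent of reads reporting cytosine, without normalization between libraries or read totals. No test, interval over reads or floor was computed.

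Tile levels, rounded to 6 decimals because the deposited percentages are rounded, were computed with Python 3.11.15, numpy 2.4.6 and pandas 2.3.3. Repeats are the soft-masked bases of the GRCm38 reference, genes and promoters (1000 bp to either side of a gene start) are from GENCODE M21, tRNAs are from RefSeq, and sequence groups were made with BLAST+ 2.17.0. Each group was seeded by the tile with the most partners, and for group 3 another of its tiles is printed. Contigs entered levels only. Tile and BLAST steps were tested on simulated data. The simulated tiles had the same level at all their sites, far from the threshold, so this does not cover uneven tiles or tiles near it.

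The members and lists were chosen with earlier results of these data known. Named are the 10 highest tiles, the tiles nearest the thresholds, the longest runs, the 20 coding genes with the most retaining tiles, up to 5 tiles per gene list and the 5 largest sequence groups. The alternatives varied both thresholds, sites, tile position, summary and chromosomes.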

Additional observations from a re-analysis of the deposited data

Results flagged for a closer look

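The retaining tiles moved in opposite directions in the 2 lines between ESCs and neurons, and so did the other tiles. The mean change of retaining tiles was 36.2 percentage points from *R1* ESCs to *R1* neurons and -16.6 percentage points from *Tet/Tet* ESCs to *Tet/Tet* neurons. In other tiles the changes were larger, 45.8 and -32.0 percentage points, so the opposite directions are not particular to the retaining tiles. Each change rests on 1 library per condition, the neuron levels chose the tiles, and the difference was not tested.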

How the results depend on the processing

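No paired analysis was possible because each condition had 1 library and no test was made. The share of tiles that were retaining, 4.29%, was 8.68% at a *Tet/Tet* threshold of 30%, 0.881% at 50%, 2.42% with sites outside repeats only, 2.37% with the median of sites and 7.77% over sites listed in both neuron tables. It stayed within 1.5 times under the other 6 alternatives. The other values were set against the exact 95% binomial interval of the main value, which covers counting of tiles only. The share at or above 50% in *R1* ESCs, 64.0%, was 69.2% at the 50% threshold, 68.5% at 90% in *R1* neurons, 55.5% with 10 sites or more, 55.7% within MspI fragments, 67.8% by medians, 66.1% with shifted tiles and 58.8% outside CCGG, an alternative chosen after seeing the data. For *Tet/Tet* ESCs, 68.8% became 76.4, 73.9, 60.4, 59.9, 71.2 and 64.0% in that order without the shifted tiles. The share rich in repeats, 48.5%, was 42.4% at 30%, 65.7% at 50%, 44.9% at 90% in *R1* neurons, 70.8% with 10 sites, 71.4% within MspI fragments, 3.95% outside repeats, where such tiles lose their sites, 42.5% by medians and 22.6% over both neuron tables. The share outside genes and promoters, 46.2%, was 42.8, 52.5, 43.1, 58.5, 58.3 and 41.6% under the 30, 50 and 90% thresholds, 10 sites, MspI fragments and medians. It fell below that of other tiles outside repeats, 21.7 against 25.9%, and over both neuron tables, 36.2 against 36.6%, and the cause of the second was not tested. In the remaining 42 of 44 comparisons the retaining tiles had the higher share.

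Of the retaining tiles 46.0% were also taken by medians and 61.9% over both neuron tables, where they made up 11.6% of the 11459 tiles taken. Of the 885 with 5 or more sites outside CCGG and at or above 80% in *R1* neurons there, 74.0% were taken. Unknown depth and 1 library per condition limit every value: a tile rests on a median of 6.00 sites.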

Other observations

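At the thresholds, the 5 tiles nearest to 80% in *R1* neurons on the upper side had *Tet/Tet* neuron levels of 40, 40, 90, 100 and 52.0%. The 5 nearest below, at 79.40 to 79.96%, had 62.50, 49.89, 37.50, 36.73 and 60%. In all, 155 of 30235 tiles under 80% in *R1* neurons were at or above 35% in *Tet/Tet* neurons.

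Chromosome Y had 14 retaining tiles of 246, 5.69%, and 89.8% of its tiles had at least 50% repeat bases. Some 186 retaining tiles, 8.68%, lay far (over 100 kb) from a gene start, against 5.27% of other tiles.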
